A study of Mus musculus with 125 samples.

Results

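Cultures of mouse acute lymphoblastic leukaemia of the B lineage (B-ALL), grown without natural killer (NK) cells, were compared in their open chromatin, the cell lines A and B (A/B) against the cell lines C and D (C/D). All libraries of tumour cells cultured alone in the experiments 9.5, 9.6 and 9.7 were taken, 18 of A/B and 18 of C/D, which makes 36 of the 125 libraries of the series. The assay was ATAC-seq: a transposase cuts and tags the DNA that nucleosomes leave uncovered. The series follows how such lines change under attack by NK cells, and the cultures described here are its controls without NK cells, sampled on day 4 in experiments 9.5 and 9.6 and on day 6 in experiment 9.7.

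All 4 lines carry the fusion oncogene BCR/ABLp185, brought in by a retrovirus into bone marrow cells of wild-type C57BL/6 mice that were young adults of both sexes, and all carry a lentiviral barcode library with GFP, by which the cells were sorted. A and B were barcoded separately from 1 parental line, and C and D from 1 other parental line. Each side of the comparison is therefore 1 leukaemia with 2 barcoded derivatives, not a sample of several leukaemias, and a difference between the pairs cannot be told apart from a difference between those parental lines. The IL-2 that NK cells need was present in every culture. Each line had 3 replicate wells in each of the 3 experiments. The fit held a term for experiment, so that p-values measure the spread between wells and derivative lines within experiments. Shifts that all lines of an experiment share are taken out.

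B-ALL cells stand at an early stage of B cell development, at which the transcription factors Ebf1, Pax5 and E2A keep B lineage genes open and the immunoglobulin loci are rearranged segment by segment. Open promoters mark genes that can be transcribed, while open sites far from promoters are often enhancers or binding sites of structural proteins. In bulk libraries such as these, fewer cells with a site open and a site less open in each cell cannot be told apart.

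The sites on which the comparison turned are shown first, as the middle 200 bases of each peak on the plus strand of GRCm38, with every CpG dinucleotide in capitals. They were chosen because they had large differences and stand for the different kinds of site described below: a site beside a diversity segment of the immunoglobulin heavy chain locus, an intron, 3 promoters with at least 10 CpG in these bases and a lymphocyte promoter with none.
Ighd2-5, diversity segment, higher in A/B (chr12:113466883-113467082): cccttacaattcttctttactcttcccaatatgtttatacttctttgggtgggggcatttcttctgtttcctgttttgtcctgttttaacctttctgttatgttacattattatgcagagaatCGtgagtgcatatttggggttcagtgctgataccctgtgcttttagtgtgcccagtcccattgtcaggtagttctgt
Ptpn14, intronic peak, higher in A/B (chr1:189738345-189738544): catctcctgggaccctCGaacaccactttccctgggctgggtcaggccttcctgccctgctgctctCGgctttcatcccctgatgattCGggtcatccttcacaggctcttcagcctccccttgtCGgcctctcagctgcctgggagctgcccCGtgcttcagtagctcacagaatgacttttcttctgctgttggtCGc
Rpgr, promoter, higher in A/B (chrX:10216337-10216536): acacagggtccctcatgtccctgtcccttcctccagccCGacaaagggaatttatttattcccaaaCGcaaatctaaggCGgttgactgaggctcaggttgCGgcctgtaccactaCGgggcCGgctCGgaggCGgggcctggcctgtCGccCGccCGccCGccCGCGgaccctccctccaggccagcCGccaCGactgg
Cd38, promoter, higher in A/B (chr5:43868231-43868430): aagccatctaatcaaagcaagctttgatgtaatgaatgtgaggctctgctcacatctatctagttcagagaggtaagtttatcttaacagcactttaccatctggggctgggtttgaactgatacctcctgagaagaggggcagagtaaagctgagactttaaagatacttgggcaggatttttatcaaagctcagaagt
Kcna5, promoter, lower in A/B (chr6:126535098-126535297): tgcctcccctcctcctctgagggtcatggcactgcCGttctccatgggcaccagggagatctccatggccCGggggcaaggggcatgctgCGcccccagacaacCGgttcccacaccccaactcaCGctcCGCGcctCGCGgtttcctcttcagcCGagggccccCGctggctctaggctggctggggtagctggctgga
Arhgap6, promoter, lower in A/B (chrX:169036462-169036661): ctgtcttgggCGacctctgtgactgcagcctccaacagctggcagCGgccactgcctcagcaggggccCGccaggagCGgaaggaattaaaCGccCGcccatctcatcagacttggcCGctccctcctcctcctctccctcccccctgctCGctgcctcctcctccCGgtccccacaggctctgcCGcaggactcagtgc
The windows held 1 CpG in Ighd2-5, 6 in the Ptpn14 intron, 16 in Rpgr, none in Cd38, 11 in Kcna5 and 10 in Arhgap6. The Ighd2-5 window is named after the nearest diversity segment, which starts 939 bases from the peak's centre, and does not hold the segment itself.

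The libraries held 4151525 to 8944037 counts in consensus peaks in A/B (median 7082266.5) and 5733347 to 9549241 in C/D (median 7692031). The authors' peak calling gave a median of 40518.5 broad peaks per library in A/B, against 48037 in C/D. Levels are given below as CPM, counts in a peak scaled to a common library size by the trimmed mean method. The authors' peak calling gave a broad peak at the promoters of the B lineage factors Ebf1 and Pax5 in all 18 A/B and all 18 C/D libraries. Ebf1, which opens B lineage genes, had 28.8, 41.1 and 59.2 CPM in A/B (lowest, median and highest library), against 26.7, 32 and 40.6 CPM in C/D, and Pax5, the factor that fixes B cell identity, had 79.8, 117 and 147 CPM in A/B, against 62.9, 81.7 and 114 CPM in C/D. The first principal component of all tested peaks held 27.12% of the variance and the second 14.16%, and both pairs and experiments differed along them. Within each experiment all 6 A/B libraries lay above all 6 C/D libraries on the first component: the lowest A/B library stood at 76.94 and the highest C/D library at 0.02 in experiment 9.5, at -13.05 and -79.25 in experiment 9.6, and at -6.42 and -36.91 in experiment 9.7. Replicate 1 of A and replicate 1 of B in experiment 9.7 stood apart from their sister wells and lay near the A/B libraries of experiment 9.5. Without them, 2912 peaks were called higher and 7694 lower, a comparison added after this had been seen. No 2 replicates were near-copies of each other: over the 36 pairs, chi-square per degree of freedom was 1.094 to 6.393, where 1 is the value of sampling alone.

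**Figure D1:**
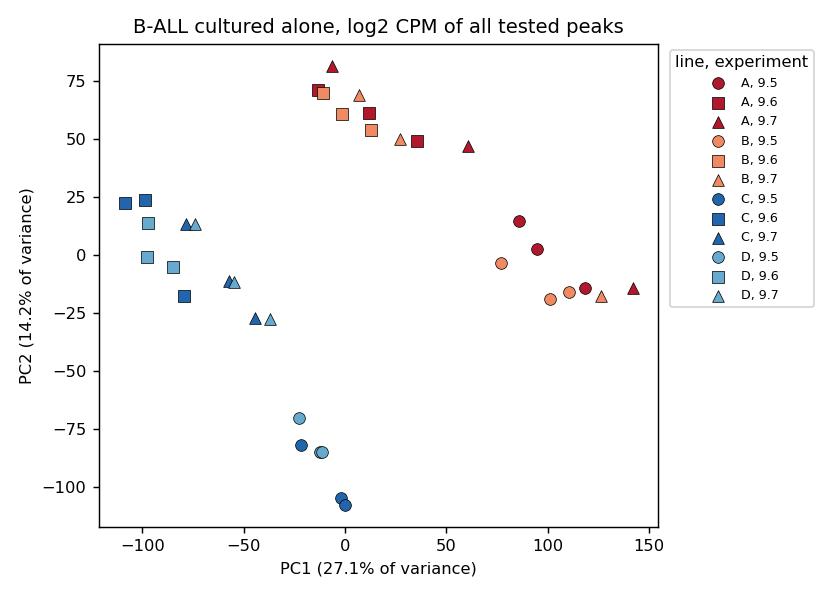
First and second principal component (percent of variance on the axes) of log2 CPM over all tested peaks. Each point is 1 of the 36 libraries, with A and B in reds, C and D in blues, and circles, squares and triangles for experiments 9.5, 9.6 and 9.7; A/B and C/D do not mix, and 1 A and 1 B triangle at the right lie beside the A/B circles.

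Of 92510 tested peaks, 3816 (4.12%) were called higher and 8010 (8.66%) lower in A/B, where a call needed an adjusted p of at most 0.05 and a log2 fold change of at least 0.58 in size. Promoter peaks, within 3 kb of a transcription start site (TSS), made up 32929 of them, with 1159 (3.52%) higher and 2143 (6.51%) lower. A stricter view counts peaks at which the libraries of the pairs did not overlap at all: all 18 A/B libraries lay above all 18 C/D libraries at 457 peaks (0.494%) and below them at 750 (0.811%). Differences were mostly moderate, with 922 peaks at least 2-fold higher and 2243 at least 2-fold lower, and 34 at least 8-fold higher and 29 at least 8-fold lower. Of the called peaks, 3805 of 3816 and 7986 of 8010 had the same sign in each of the 3 experiments. The calls drew on these same experiments, so a shared sign was nearly fixed in advance. Called in each experiment alone were 1664 of the higher and 3619 of the lower peaks. By edgeR's quasi-likelihood test of the pair by experiment term, the difference itself varied at 22 peaks (0.0238%) after adjustment. In that test 7399 peaks had an unadjusted p under 0.05. Far fewer peaks separated the derivatives of 1 parental line, in fits of 18 libraries each: 543 (0.587%) were called between A and B (97 without replicate 2) and 611 (0.66%) between C and D (287 without replicate 1 and 158 without replicate 2).

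The direction of the small differences depended on how open a peak was. Among the 23131 peaks with a mean of 10 CPM or more, 1510 were called higher and 533 lower with a median log2 fold change of 0.21, and among the 39145 under 3 CPM, 786 were higher and 4624 lower with a median of -0.13. A scaling that follows the level (loess) gave 633 higher and 1020 lower among the most open peaks, so that their balance turned round. The median over all genes moved with it, 0.117 under the main scaling and -0.033 under loess, and 16 of 16 housekeeping genes had a positive log2 fold change (median 0.28) that was gone under loess (median -0.01), none of them called by edgeR or DESeq2, although 15 had an unadjusted p under 0.05. Over all peaks loess gave 3633 higher and 6573 lower calls, and 2840 of the 3816 and 5985 of the 8010 main calls were made by both scalings, none in the opposite direction. Changes of well-covered promoters are therefore read below against a median of about this size.

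Chromosome 14 gave fewer counts in A/B in every 5 Mb bin that held at least 20 tested peaks. Its 4510 tested peaks held 42 higher and 2401 lower calls, 30.0% of all lower calls, and their median log2 fold change was -0.61, a ratio of 0.657 of A/B to C/D. The median was -0.60 in experiment 9.5, -0.61 in experiment 9.6 and -0.64 in experiment 9.7, and over all experiments the medians of the other autosomes and of the X chromosome lay between -0.02 and 0.09. All 23 such bins on chromosome 14 had medians between -0.84 and -0.43, while the 469 bins on the other chromosomes lay between -0.33 and 0.36. As a share of all counts in peaks, chromosome 14 took 3.53%, 3.7% and 4.14% in A/B (lowest, median and highest library), against 5.24%, 5.4% and 6.09% in C/D, without overlap. Over the 6 means per line and experiment on each side, an exact two-sided permutation test gave p = 0.00216. This is the smallest p that 6 against 6 allow, and adjusted over 21 chromosomes it was 0.0455. No other chromosome had an adjusted p under 0.05, but a single chromosome could pass only at that smallest p. The means on each side came from derivatives of the same parental line, sampled again in each experiment. They are thus not independent, and the test did not pair them by experiment. Its p-value therefore does not extend to other leukaemias. ATAC-seq counts depend on the number of DNA copies as well as on accessibility, copy number was not measured, so these cannot be told apart here, nor can a lower amount in A/B and a higher one in C/D. Without chromosome 14, which was left out after its values had been seen, 3774 peaks were called higher and 5609 lower.

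**Figure D2:**
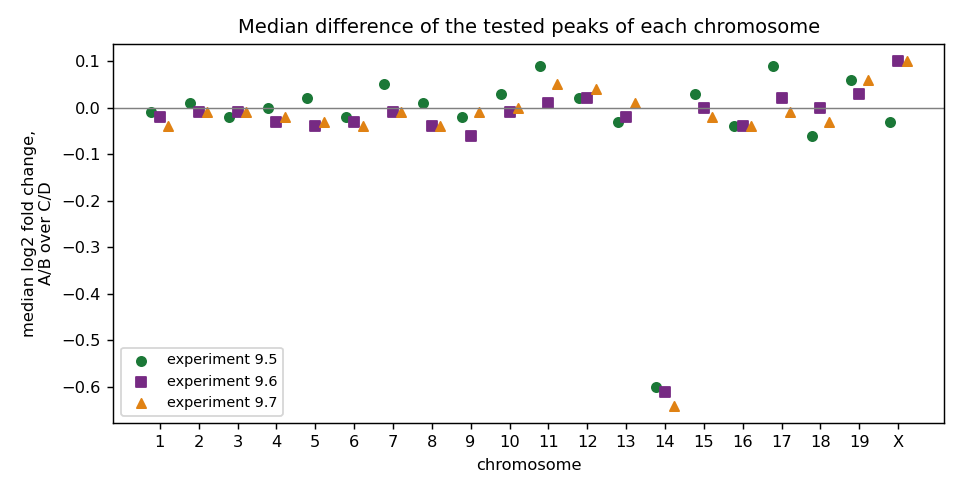
Median log2 fold change of A/B over C/D (y axis) of the tested peaks of each chromosome (x axis), 1 point for each experiment. Chromosome 14 lies at -0.60, -0.61 and -0.64 in the experiments 9.5, 9.6 and 9.7, apart from all others.

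Genes on chromosome 14 carried this shift. Its promoter peaks had a median log2 fold change of -0.54. Rb1, the retinoblastoma tumour suppressor, had -0.43 and Irf9, the DNA-binding subunit of the interferon-activated complex ISGF3, had -0.40, neither called. The promoter of Tnfrsf10b, the mouse death receptor for TRAIL, fell further, with 5.24, 8.66 and 11.6 CPM in A/B (lowest, median and highest library), against 13, 18.7 and 23.6 CPM in C/D. These ranges did not overlap, and the log2 fold change was -1.16 (SE 0.087, adjusted p = 1.31e-17). The granzyme B gene Gzmb, a cytotoxic protease gene of killer lymphocytes, was also called lower, at -0.74, from low levels (median 2.08 CPM in A/B and 3.07 CPM in C/D). The longest runs of neighbouring peaks that were all called lower lay here too: 143 of the 248 lower runs of at least 5 peaks were on chromosome 14 and none of the 40 higher runs. The longest, 27 peaks over 291.2 kb from Akap11 to Dgkh, held log2 fold changes of -1.91 to -0.69. Dgkh encodes diacylglycerol kinase eta, which removes the second messenger diacylglycerol, and its most open promoter peak averaged 15.4 CPM in A/B and 30.9 CPM in C/D. A peak 26050 bases from Spry2, an inhibitor of receptor tyrosine kinase signalling, went far beyond the chromosome's shift, with 0.805, 1.5 and 2.75 CPM in A/B, against 15.8, 20.4 and 31.8 CPM in C/D (log2 fold change -3.70, SE 0.117).

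The largest differences at single promoters were close to presence and absence. By a rule of size, level and separation, 10 higher and 9 lower promoter peaks are described, out of 175 higher and 204 lower that met it, and by that rule none of them had pairs that overlapped. Ptpn14, which encodes a non-receptor tyrosine phosphatase known as a regulator of YAP signalling, had a promoter peak (chr1:189726165-189729552) with 32.4, 49.4 and 75.1 CPM in A/B (lowest, median and highest library), against 1.82, 3.59 and 5.7 CPM in C/D. It was 13.8-fold higher in A/B (log2 fold change 3.78, SE 0.108, adjusted p = 1.30e-37). Inside the gene, 10169 bases from its TSS, the intronic peak whose sequence is shown above (chr1:189737860-189739029) had 21.6, 34.6 and 53.4 CPM in A/B, against 0.327, 1.09 and 2.0 CPM in C/D, and with a log2 fold change of 4.95 (SE 0.127) was the first of the named peaks far from promoters. Both lay in the longest run of higher peaks together with one run on chromosome 18: 17 peaks in a row over 117.2 kb from Cenpf through Ptpn14, with log2 fold changes of 0.64 to 4.95 and no overlap of the pairs at 10 of them.

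Rpgr on the X chromosome, the gene of a GTPase regulator of the primary cilium that is mutated in retinitis pigmentosa, had a promoter peak (chrX:10215749-10217124) with 8.22, 11.7 and 15.5 CPM in A/B, against 0.0, 0.465 and 1.1 CPM in C/D. Every A/B library was above every C/D library, and the log2 fold change was 4.45 (SE 0.15, adjusted p = 5.68e-34). Of the other higher promoter peaks, Gm12160 and Gm8873 also lay in sequence that occurs once in the genome, with log2 fold changes of 3.87 and 3.10. The remaining ones share sequence with other places, so that reads of near-identical copies could be assigned to them, and their values are uncertain. Of the 32-base words in the middle 300 bases, 69.9% were unique for Gm46430 (log2 fold change 5.24), 37.2% for the zinc finger gene Zfp951 (3.86), 39.0% for 2410018L13Rik (3.54), 26.4% for Gm5953 (3.24) and 43.5% for Gm14139 (3.09).

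Among the promoters that were lower in A/B, Kcna5, which encodes a voltage-gated potassium channel, had 0.512, 1.61 and 2.48 CPM in A/B, against 11.4, 14.6 and 22.9 CPM in C/D (chr6:126534234-126536160). The ranges were far apart, and the peak was 10.3-fold lower in A/B (log2 fold change -3.37, SE 0.117, adjusted p = 2.45e-33). Of the 9 lower promoters described 4 lay on the X chromosome. Arhgap6, the gene of a GTPase-activating protein, had 0.393, 1.23 and 1.97 CPM in A/B, against 8.87, 16.6 and 22 CPM in C/D (log2 fold change -3.73, SE 0.143). Dach2, a transcriptional cofactor of the dachshund family, had 0.0, 1.72 and 2.62 CPM in A/B, against 11.8, 16.4 and 23.1 CPM in C/D. Neither pair of ranges overlapped. With the zinc finger gene Zfp449 (log2 fold change -3.36) and 4933407K13Rik (-3.69), these promoters were almost closed in A/B and open in C/D.

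The X chromosome as a whole had a median log2 fold change of 0.09 and took 1.17% of counts in A/B against 1.2% in C/D (medians). Of its 544 promoter peaks, 16 (2.94%) were lower without overlap and 4 (0.735%) higher, beside 238 (0.723%) and 183 (0.556%) of all 32929 promoter peaks. The Y chromosome took like shares of counts, a median of 0.119% in A/B and 0.109% in C/D. Promoters of the Y-linked genes Ddx3y, an RNA helicase gene, and Uty, a histone demethylase homologue, had log2 fold changes of -0.05 and 0.01. The other lower promoters were Ccdc150 (log2 fold change -3.35), Gm10863 (-3.26), Gm47467 (-3.49, 72.9% unique) and Gm48693 (-3.56), of which the last lay in sequence with only 2.97% unique words and is uncertain.

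**Figure D3:**
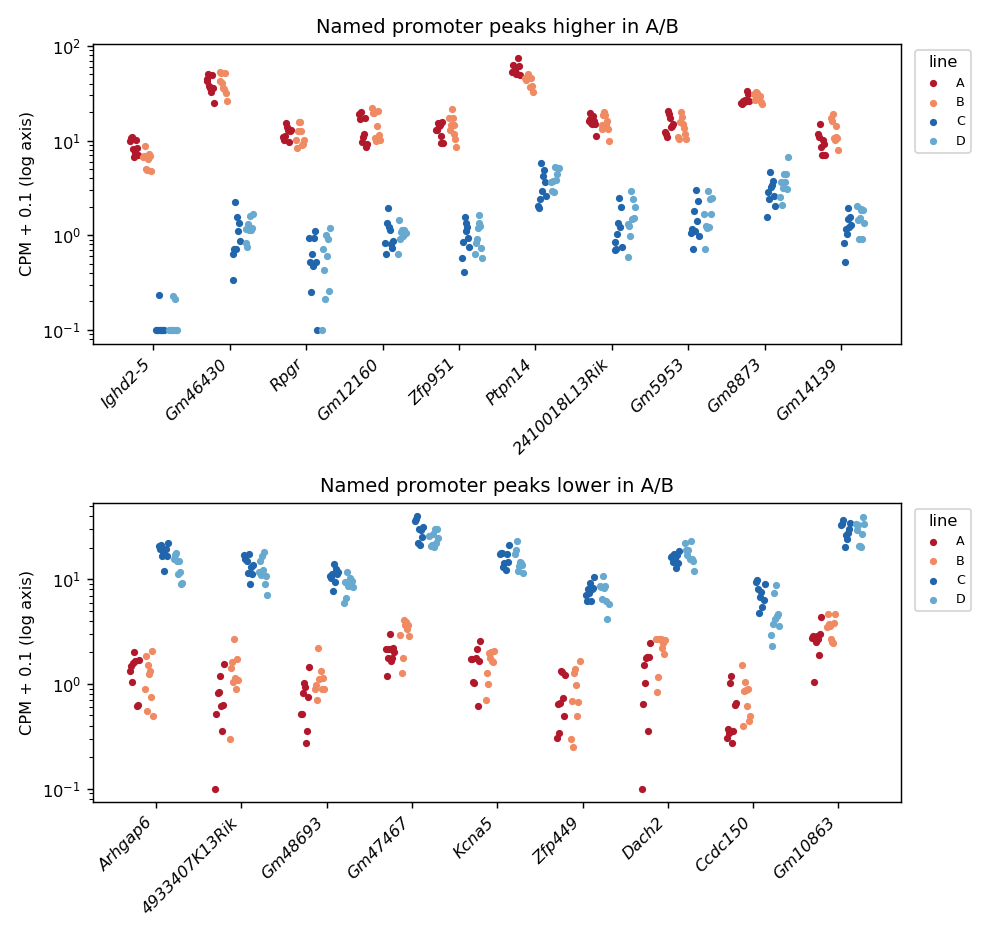
CPM plus 0.1 on a log axis (y) at the 10 promoter peaks higher (top) and the 9 lower (bottom) in A/B, 1 point for each library, with lines A, B, C and D from left to right in each gene. The pairs do not overlap at any of these peaks, as the rule for naming them required.

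A set of 5 further C/D libraries of repeat experiments, which no fit had used, gave a check of these peaks on one side. At all 20 promoter peaks that the rule gave and all 10 peaks far from promoters, all 5 libraries lay on the C/D side of every A/B library. They come from 3 wells of C and 2 of D, and replicates 2 and 3 of C did not differ beyond sampling (chi-square per degree of freedom 0.865), so that they count as 4 samples. No A/B library of a repeat experiment was used here.

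Far from promoters, the named higher peaks near Gm11825, Gm45336, Gm11011 and Rps12-ps24 had log2 fold changes of 4.11, 3.98, 3.96 and 3.8. Lower peaks lay in an intron of Stox2, a gene of the storkhead-box family, with 0.206, 0.918 and 1.54 CPM in A/B, against 6.3, 9.81 and 14.7 CPM in C/D (log2 fold change -3.50), and 5755 bases from Psat1, an enzyme gene of serine synthesis, with 0.558, 1.04 and 2.75 CPM in A/B, against 9.76, 15.5 and 21.5 CPM in C/D (-3.50). Neither pair of ranges overlapped. That Stox2 window is uncertain, as 83.3% of its 32-base words were unique and others lay at up to 1039301 places. The Stox2 peak was part of a run of 14 lower peaks over 304.2 kb, with log2 fold changes of -3.5 to -0.96, and the Stox2 promoter averaged 2.79 CPM in A/B and 7.37 CPM in C/D. On chromosome 14, a peak in an intron of Lrch1 had a log2 fold change of -3.43, and near Gm47488 on chromosome 12 it was -3.75. The Gm47488 window is uncertain too, with 81.4% unique words and others at up to 663 places.

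Other higher peaks also lay in runs. A run of 17 higher peaks over 664.4 kb began at Nr3c1, the glucocorticoid receptor, with log2 fold changes of 0.64 to 2.00. The most open Nr3c1 promoter peak averaged 80.4 CPM in A/B and 57.1 CPM in C/D and was not called (0.49), while the promoter peak inside the run averaged 9.1 CPM in A/B and 5.41 CPM in C/D and was called (0.74). On chromosome 9, 13 peaks in a row over 393.3 kb lay around Rbms3, an RNA-binding protein gene whose promoter averaged 35.3 CPM in A/B and 9.56 CPM in C/D without overlap. Another 11 peaks over 599.1 kb ended at Chst2, a sulfotransferase that helps to make ligands of L-selectin, with 30.4 CPM in A/B and 9.89 CPM in C/D at its promoter, again without overlap. The phospholipid scramblase gene Plscr4, in a run of 11, had 22.5 CPM in A/B and 9.92 CPM in C/D at its promoter (log2 fold change 1.16). Off chromosome 14, the longest lower runs were 14 peaks around Enah, an actin regulator gene, and the 14 around Stox2, followed by 12 from Emx1 to Sfxn5 and 12 from Itgb2l to Dscam.

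The immunoglobulin heavy chain locus (Igh) differed in blocks. Of its 221 tested peaks 74 were higher and 6 lower, with a median of 0.44, beside 4.12% higher and 8.66% lower over all tested peaks. The peak nearest to the diversity segment Ighd2-5 (chr12:113466116-113467849) was 1734 bases long, and its centre lay 939 bases from the start of that segment. The segment start was thus just outside the peak, and the sequence shown above is that of the peak's middle. It had 4.72, 7.03 and 10.7 CPM in A/B (lowest, median and highest library), against 0.0, 0.0 and 0.133 CPM in C/D. It held 871 counts in A/B, with some in all 18 libraries, against 3 counts in 3 of the 18 C/D libraries, a ratio of 359 with a 95% counting interval of 122 to 1740. The authors' peak calling found a broad peak there in 18 A/B libraries and in 0 C/D libraries. Diversity segments resemble each other, and in the middle 300 bases 61.7% of 32-base words were unique. The 6 peaks among the diversity segments and Adam6b had a median of 1.34 with 5 higher. The most open of them, at Ighd1-1, had 30.0, 39.3 and 53.9 CPM in A/B, against 9.63, 15.6 and 29.4 CPM in C/D, without overlap.

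Along the variable segments the sign changed and changed back. The 5 peaks from Ighv2-2 to Ighv5-12 were all higher (0.87 to 1.18), and the next 5 from Ighv2-9-1 to Ighv5-16 were all lower (-1.91 to -0.60). Ighv2-9-1 had 0.953, 2.21 and 3.99 CPM in A/B, against 4.64, 9.06 and 11.3 CPM in C/D, again without overlap. Beyond Ighv5-16, 62 of 180 peaks were higher and 1 was lower, led by Ighv1-49 (log2 fold change 1.66). These blocks were drawn after the values had been seen and carry no test. Heavy chain rearrangement joins a variable, a diversity and a joining segment and removes the DNA between them, and it was not tested which segments of the lines were still present. Ighm, the constant region of the first heavy chain made, was called higher, with medians of 98.5 CPM in A/B and 61.3 CPM in C/D.

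**Figure D4:**
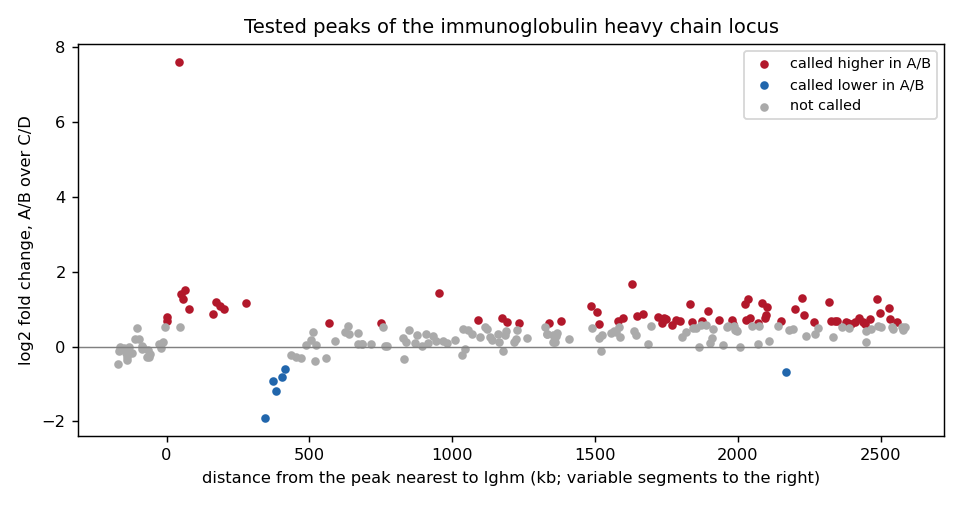
Log2 fold change of A/B over C/D (y axis) for the 221 tested peaks of the heavy chain locus by their distance in kb from the peak nearest to Ighm (x axis). Points in red were called higher in A/B, in blue lower, in grey neither; Ighd2-5 stands at 7.61 and the blue block of 5 peaks follows a red one.

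At the kappa light chain locus 61 of 179 peaks were higher and 1 lower (median 0.45), and Igkv1-135, a variable segment, had 2.56, 4.13 and 7.62 CPM in A/B, against 0.63, 1.5 and 2.36 CPM in C/D, without overlap. The lambda locus had 1 higher peak of 15. Over all tested peaks 4.12% were higher and 8.66% lower, and no locus was tested against these shares. Of the T cell receptor loci, the alpha and delta locus lies on chromosome 14 and had 27 lower peaks of 46 with a median of -0.66, close to that of the chromosome, while the beta locus had 1 lower of 41 and the gamma locus 4 lower of 15.

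Genes of B cell identity and of recognition by NK cells were read from lists, beside the share of calls over all genes. Each gene was taken by its most open promoter peak, for which 872 of 26333 genes (3.31%) were higher and 1552 (5.89%) lower. Of 22 B cell transcription factors 1 was higher and none lower: Tcf3, which encodes E2A, at 0.61 (median 74.2 CPM in A/B and 46.5 CPM in C/D), a call lost under loess. Of 25 genes of the B cell receptor and its precursor, 2 were higher and 1 lower. Cd38, an ectoenzyme that consumes NAD on lymphocytes, had 13, 19.3 and 26 CPM in A/B, against 4.21, 5.9 and 8.27 CPM in C/D, without overlap (log2 fold change 1.74, SE 0.086, adjusted p = 1.06e-25). Cd79a, the signalling chain of the receptor, had medians of 102 CPM in A/B and 68.5 CPM in C/D (0.63, lost under loess), and Ms4a1, which encodes CD20 of more mature B cells, had 4.21 CPM in A/B and 8.1 CPM in C/D (-0.96). The list medians were 0.33 and 0.38, and 0.05 and 0.10 under loess.

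Of 16 activating ligands and adhesion genes with a tested peak none was called in either direction by edgeR's quasi-likelihood test or by DESeq2, and their log2 fold changes ran between -0.17 and 0.53. As 12 of the 16 had an unadjusted p under 0.05, it was mostly the size of the differences under the main scaling that fell short of a call. The list median was 0.24, and 0.04 under loess, beside 0.117 and -0.033 over all genes. Such counts are to be read beside all 32929 promoter peaks, of which 15888 had an adjusted p of at most 0.05 in edgeR's quasi-likelihood test. Of 19 genes of MHC class I presentation 3 were higher and none lower: Psmb8, a subunit of the immunoproteasome (0.63), and the non-classical class I genes H2-Q6 (0.67) and H2-Q10 (0.82), of which the first 2 lost the call under loess. H2 genes resemble each other in sequence, and reads may be split between them. None of 11 genes of MHC class II was called by edgeR or DESeq2, with an unadjusted p under 0.05 in 10 and log2 fold changes of 0.07 to 0.42. The median was 0.37 for the class I list and 0.35 for the class II list, and 0.14 and 0.12 under loess. Among 11 genes listed as inhibitory ligands, Ido1, an enzyme that degrades tryptophan rather than a ligand, was higher (0.63) and 2 were lower. In experiment 9.5 Ido1 had 5.36, 3.84 and 5.48 CPM in line A, against 2.42, 3.08 and 2.26 CPM in line B. Cd86, a ligand of the costimulatory receptor CD28 as well as of CTLA-4, had 1.15, 2.13 and 3.02 CPM in A/B, against 4.02, 6.61 and 9.64 CPM in C/D. These ranges did not overlap (log2 fold change -1.63, SE 0.113, adjusted p = 4.04e-19). Cd200, which restrains myeloid cells, was at -0.67 from low levels and lost its call under loess.

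None of 17 genes of interferon signalling was called by edgeR or DESeq2, with an unadjusted p under 0.05 in 16 and log2 fold changes of -0.40 to 0.45. Their median was 0.26, and 0.0 under loess. Of 31 interferon-stimulated genes none was higher and 3 were lower. Mx1, an antiviral GTPase, had 1.28, 2.43 and 4.17 CPM in A/B, against 4.61, 7.07 and 9.01 CPM in C/D, without overlap (log2 fold change -1.29, SE 0.112, adjusted p = 5.94e-15). Serpina3f, a protease inhibitor gene, was at -1.38 (median 1.38 CPM in A/B and 3.69 CPM in C/D), and Oas1a, a sensor of double-stranded RNA, at -0.72 from low levels, a call lost under loess. The median of the interferon-stimulated genes was 0.16, and 0.02 under loess. Of 19 genes of apoptosis and protection from killing, the death receptor Fas (0.64) and Serpinb9, which inhibits granzyme B in human and mouse cells (0.60), were higher, both calls lost under loess, and Tnfrsf10b was lower as described for chromosome 14.

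None of 14 genes of STAT5 output and none of 18 cytokine and homing receptors was called by edgeR or DESeq2, with an unadjusted p under 0.05 in 12 and in 13 of them. The medians of these lists were 0.25 and 0.18, and 0.01 and -0.11 under loess. Of 23 tumour suppressor and leukaemia genes only Notch1, a receptor that directs early lymphocytes to the T lineage, was higher (0.79, median 68.6 CPM in A/B and 45.9 CPM in C/D, lost under loess). Of 14 stem and progenitor genes, the homeobox gene Meis1 (-0.99) and the leucine zipper factor Hlf (-0.59, lost under loess) were lower, both from low levels. Meis1 had medians of 1.73 CPM in A/B and 3.82 CPM in C/D, with a broad peak in 0 and 10 libraries. Hlf had medians of 2.82 CPM in A/B and 5.09 CPM in C/D, and its sister lines C and D were unlike, with means of 5.66 and 3.59 CPM.

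Markers of other blood cells were examined as a check of the sorted cells. Of 7 NK cell markers with a tested peak, Tbx21, the transcription factor T-bet, had 8.19, 10.9 and 18.6 CPM in A/B, against 3.37, 5.28 and 8.15 CPM in C/D, and Klrb1c, the antigen NK1.1, had 8.64, 11.0 and 12.2 CPM in A/B, against 4.02, 6.28 and 8.07 CPM in C/D. Neither pair of ranges overlapped (log2 fold changes 1.08 and 0.78), while Gzmb was lower. The remaining 4 were not called, with log2 fold changes of -0.37 in Klrd1, -0.39 in Prf1, -0.28 in Nkg7 and 0.29 in Eomes, and the list median was -0.28. Eomes, a T-box factor of NK cells, averaged 15.8 ± 2.48 CPM in A/B and 12.9 ± 3.2 CPM in C/D (SD, n = 18 each), with a broad peak in all 18 libraries of each pair. Ncr1, Klrk1, Klra4, Klra8 and Gzma had no tested promoter peak, and the summed level of the list was 44.8 to 58.8 CPM in A/B and 37.4 to 48.4 CPM in C/D. Of 11 myeloid markers Fcgr3, a receptor for IgG, was higher without overlap, with 23.4, 31.5 and 50.9 CPM in A/B, against 11.4, 15.4 and 21.9 CPM in C/D. Csf1r (-0.95), Csf3r (-0.77) and Itgam (-0.65, lost under loess) were lower, all from low levels. Their medians were 3.48, 1.44 and 1.22 CPM in A/B, against 6.76, 2.51 and 2.14 CPM in C/D. Itgam had a broad peak in 0 A/B libraries and 1 C/D library, and Csf3r in 1 and 8. Elane, Adgre1 and S100a8 had no tested promoter peak, and the sum of the myeloid list was 111 to 148 CPM in A/B and 115 to 141 CPM in C/D. Of 13 T cell markers the costimulatory receptor Cd28 (0.95) and Thy1 (0.68) were higher and none was lower. At Thy1 the sister lines were unlike: in experiment 9.5 it had 13.4, 13.3 and 16.2 CPM in line A, against 7.85, 6.76 and 8.15 CPM in line B. Cd3d, a chain of the T cell receptor complex, was not called and averaged 35.1 ± 7.54 CPM in A/B and 32.1 ± 6.44 CPM in C/D (SD, n = 18 each). The kinases Lck (46.7 CPM in A/B and 31.1 CPM in C/D) and Zap70 (64.7 CPM in A/B and 46.3 CPM in C/D) did not reach the fold threshold, and all 3 genes had a broad peak in every library of both pairs. Cd3e, Cd4 and Cd8a had no tested promoter peak, and the sum was 237 to 418 CPM in A/B and 186 to 308 CPM in C/D. The part of other cells in these differences was not tested.

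**Figure D5:**
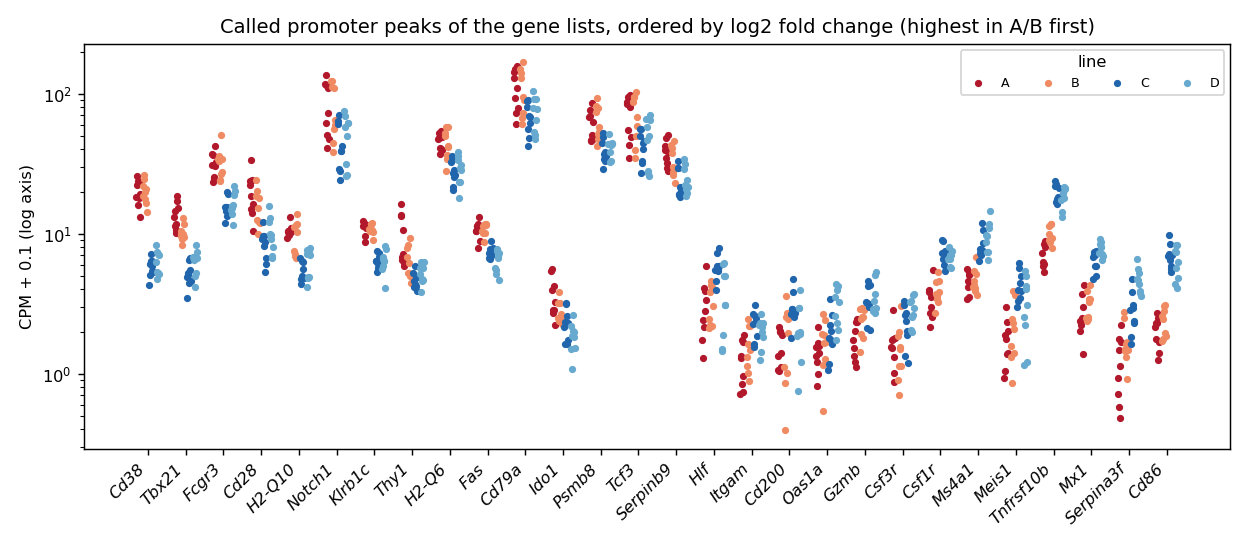
CPM plus 0.1 on a log axis (y) at the called promoter peaks of the gene lists (x), from the highest log2 fold change in A/B (Cd38, 1.74) to the lowest (Cd86, -1.63), 1 point for each library, with lines A, B, C and D from left to right in each gene. Pairs are apart at Cd38, Tbx21, Fcgr3, Klrb1c, Tnfrsf10b, Mx1 and Cd86 and overlap at the others.

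The sequence under the called peaks was described in windows of 300 bases. Windows rich in CpG, with at least 50% G and C and an observed over expected CpG ratio of at least 0.6, were 13.8% of promoter windows called higher and 16.2% of those called lower, beside 27.4% of all tested promoters. Of the promoters printed above, Rpgr was rich in CpG by this measure (ratio 0.81), while Kcna5 (0.38), Arhgap6 (0.44) and Cd38 (0.08) were not. Beyond 3 kb from a TSS windows rich in CpG were 1.28% of higher, 1.5% of lower and 1.35% of all peaks. Exact motif letters were searched on both strands in those peaks beyond 3 kb. The RUNX motif TGTGGT lay in 30.0% of higher and 25.8% of lower windows, beside 26.2% of all. The AP-1 motif TGANTCA, with any base at N, lay in 8.69% of higher and 11.9% of lower windows, beside 9.99% of all. The STAT motif TTCNNNGAA lay in 9.33% of higher and 11.2% of lower windows, beside 9.14% of all, and the core motif of CTCF, which folds chromatin into loops, in 0.979% of higher and 0.972% of lower windows, beside 1.99% of all. In the printed windows, the E-box CAGCTG to which E2A can bind begins at base 134 of the Ptpn14 intronic window and at base 36 of the Arhgap6 window, and a GATA motif, AGATAA, lies on the minus strand at base 79 of the Cd38 window. A match describes letters and does not show binding.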

How the data were processed

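ATAC-seq was made from GFP+ sorted tumour cells and read in pairs. According to the labels and the study's methods, the authors aligned reads to GRCm38 with STAR, handled duplicates with Picard 2.27.4, called broad peaks in each library with MACS2 2.2.7.1, merged them into 256400 consensus intervals and counted reads in them. The blacklist named there belongs to a human build, GRCh38. The deposited tables used here hold raw counts per interval, and the deposited peak files hold a −log10 q-value and a fold enrichment per broad peak, of which only the positions and the −log10 q-value were read. Peaks were named here by the nearest transcription start site of the GENCODE vM21 annotation of GRCm38, and sequences were read from RefSeq's GRCm38.

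Counts of the 36 libraries were filtered by filterByExpr (minimum count 10), scaled by TMM and fitted with edgeR 4.0.16 in R 4.3.3, with experiment and pair as terms. The quasi-likelihood F-test was two-sided, its p-values were adjusted by the Benjamini-Hochberg method over all 92510 tested peaks, and a call needed an adjusted p of at most 0.05 and a log2 fold change of at least 0.58 in size. SE is the log2 fold change divided by the square root of F. The biological coefficient of variation was 0.137. Counting intervals cover counting error only.

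Named peaks are the 10 promoter peaks and the 5 others in each direction with the largest fold change among those called, with no overlap of the pairs and a mean of at least 5 CPM in the higher pair, 1 per gene; the called genes of 18 lists; and the genes of the longest runs. Of these, 1 lower promoter peak is not reported here. The members, lists and thresholds were chosen with earlier results of these data known. Unique words were counted on the 21 assembled chromosomes. The alternatives were DESeq2 1.42.0, other scalings and filters, summed counts, single experiments, replicates or lines left out, and a replicate block. The replicate numbers did not pair the wells in general: of 54 same-numbered pairs 3 had a correlation over 0.1 (median -0.005, lowest -0.359). The exception was A and B in experiment 9.7, with 0.623 for replicate 1 and 0.501 for replicate 3. Those A and B wells are therefore not independent of each other. The pipeline was tested on simulated data.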

Additional observations from a re-analysis of the deposited data

Results flagged for a closer look

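For 13 called peaks the difference between A/B and C/D itself differed between the experiments, by edgeR's quasi-likelihood test of the pair by experiment term with Benjamini-Hochberg adjustment, which was passed by 22 of 92510 peaks (0.0238%). Near Arpp21, which encodes a regulatory phosphoprotein, the log2 fold change was 3.09 in experiment 9.5, 1.26 in 9.6 and 1.54 in 9.7 (adjusted p = 2.14e-03). It was likewise largest in experiment 9.5 near Platr26 (3.26, 1.88 and 2.35, adjusted p = 3.67e-03), Gm17396 (3.46, 1.71 and 1.72, adjusted p = 3.67e-03), Fndc3a on chromosome 14 (2.14, 0.19 and 0.59, adjusted p = 3.67e-03), Gm20396 (3.03, 1.66 and 1.89, adjusted p = 2.10e-02) and the calcium channel gene Ryr2 (1.72, 0.39 and 0.68, adjusted p = 2.10e-02). The experiment with the largest value was again 9.5 near Gm26250 (3.22, 1.12 and 0.78, adjusted p = 2.66e-02), Gm45336 (3.59, 2.56 and 1.69, adjusted p = 3.85e-02), Cenpf, a kinetochore gene beside Ptpn14 (2.68, 1.31 and 1.31, adjusted p = 4.24e-02), and Gm11819 (2.59, 0.62 and 1.68, adjusted p = 4.24e-02). Of the lower peaks, Gm21814 (-2.22, -0.74 and -0.76, adjusted p = 3.85e-02) and the sulfotransferase gene Ust (-1.76, -0.81 and -0.57, adjusted p = 4.24e-02) were also farthest from 0 in experiment 9.5, while Iqcn was so in experiment 9.7 (-0.30, -0.26 and -1.49, adjusted p = 2.10e-02). Leaving out single replicates gave 0 to 57 such peaks. Peaks with an unadjusted p under 0.05 in this test numbered 7399 in the main fit. They numbered 3526 without replicate 2, which gave the 0, and 13954 without replicate 3, which gave the 57. The count that passed thus depends on the adjustment and on single wells, and the peaks outside it were not shown to be uniform.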

How the results depend on the processing

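The 30 named peaks kept direction and call in 628 of 628 alternative fits (21 settings). They had been named for the largest called differences without overlap in these same libraries, so this outcome was largely fixed by the rule and is no independent check. Of the 28 called list genes 16 lost the call in at least 1 setting, in 84 of 573 fits, 11 of them under loess as given beside them, and none turned round. The median of chromosome 14 was -0.56 under loess, -0.55 among peaks with a broad peak in all replicates of a pair, -0.64 with counts summed per line, -0.66 without line C, -0.64 in experiment 9.7 alone, -0.57 without replicate 1 of A and B in experiment 9.7, and -0.66 to -0.57 when replicates were left out in turn. Without a filter 15894 peaks and 3365 promoter peaks were lower. With a broad peak in all replicates of a pair, 798 were higher and 1872 lower (promoters 302 and 774), and a promoter window of 1 kb gave 672 higher and 1304 lower. Leaving out replicates gave 97 to 498 calls between A and B, 158 to 603 between C and D, and 0 to 57 peaks that varied between experiments (main 22). In windows of 200 bases RUNX lay in 21.3% of higher and 18.1% of lower peaks, AP-1 in 5.53% and 7.97%, STAT in 6.44% and 7.49%, and CTCF in 0.631% of lower peaks. With the replicate block, which the correlations did not warrant except for A and B in experiment 9.7, 3700 peaks were higher and 8096 lower. DNA copy number was not measured.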
